A study of Mus musculus with 4 samples.

Results

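Granzymes are serine proteases of cytotoxic granules, and perforin is the granule protein that opens the target cell to them. The rows described here are those of 5 of the 55450 genes counted: Gzma, Gzmb, Gzmc and Gzmk, which encode granzymes A, B, C and K, and Prf1, which encodes perforin. The rows were taken by gene symbol and not by a threshold on a measured value. The genes were chosen with earlier results of these data known. All 5 had UMIs (unique molecular identifiers, each standing for 1 captured RNA molecule) in kept cells, with 2213 of Gzma, 2368 of Gzmb, 1530 of Gzmc, 524 of Prf1 and 32 of Gzmk. The data are droplet single-cell RNA counts from the middle part of the mouse colon, with 42448 kept cells in 4 libraries. Control 1 and control 2 came from 7-week-old mice that drank clean water. DSS 1 and DSS 2 came from mice of the same age given 3% dextran sulfate sodium (DSS) in the water for 2 days, a sulfated sugar polymer used to provoke colitis. All mice were kept free of specified pathogens. The labels give no strain, and they do not say whether the 2 libraries of a group came from separate animals, so each p below reflects no more than the differences among these 4 libraries, and those may be technical.

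Natural killer (NK) cells, CD8 T cells and many gamma delta T cells of the gut store granzymes with perforin. Perforin forms pores in the membrane of a target cell, and granzymes that enter cleave substrates that lead to its death. Granzyme B cleaves after aspartate and activates caspases, and granzymes A and K are tryptases that cleave after basic residues. Granzyme C is a rodent member encoded beside granzyme B. Mouse mast cells and regulatory T cells are also known to make granzyme B.

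In the GRCm38 annotation (GENCODE M21) the members lie in 3 places. Gzmb, at chr14:56258838-56262260 on the minus strand, and Gzmc, at chr14:56231441-56234656 on the minus strand, belong to a run of 7 granzyme genes. Gzma, at chr13:113093825-113100981, and Gzmk, at chr13:113171608-113225908, are neighbours on the minus strand, and Gzmk overlaps Esm1 on the other strand. Prf1 lies at chr10:61297833-61304680 on the plus strand. The kit reads the 3′ end of transcripts, so likeness there decides whether reads can be told apart. In the last 500 bases of their transcripts the 4 granzymes shared no word of 30 bases with any other gene, and Prf1 shared 12 of 942 words, or 1.27%. So the 3′ ends of Gzmb and Gzmc differ, although the genes are close relatives.

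The 250 bases before the transcription start of 4 members are printed here, because Gzma, Gzmb, Gzmc and Prf1 were held by different sets of cells in the data below. They are from RefSeq on GRCm38.p6, read 5′ to 3′ along the gene. The windows are chr13:113100982-113101231 (minus) for Gzma, chr14:56262335-56262584 (minus) for Gzmb, chr14:56234658-56234907 (minus) for Gzmc and chr10:61297586-61297835 (plus) for Prf1. Capitals mark every match, on either strand, to the core TGTGGT that Runx factors bind, to the AP-1 site TGANTCA and to the core TGACGT of the cAMP response element, so a match on the other strand is printed as its reverse complement.
Gzma: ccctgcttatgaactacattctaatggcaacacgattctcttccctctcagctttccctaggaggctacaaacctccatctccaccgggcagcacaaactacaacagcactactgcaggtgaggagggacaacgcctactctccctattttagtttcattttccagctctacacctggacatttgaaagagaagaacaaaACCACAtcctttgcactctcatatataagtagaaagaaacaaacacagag
Gzmb: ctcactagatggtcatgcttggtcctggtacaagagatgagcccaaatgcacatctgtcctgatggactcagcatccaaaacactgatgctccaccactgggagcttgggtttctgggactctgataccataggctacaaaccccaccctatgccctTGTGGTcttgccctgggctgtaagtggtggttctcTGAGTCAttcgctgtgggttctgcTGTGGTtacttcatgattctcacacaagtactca
Gzmc: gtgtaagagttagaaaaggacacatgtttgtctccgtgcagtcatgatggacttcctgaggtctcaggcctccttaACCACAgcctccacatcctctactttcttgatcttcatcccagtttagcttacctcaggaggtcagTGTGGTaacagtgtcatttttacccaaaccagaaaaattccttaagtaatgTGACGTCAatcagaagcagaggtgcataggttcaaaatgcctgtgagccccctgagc
Prf1: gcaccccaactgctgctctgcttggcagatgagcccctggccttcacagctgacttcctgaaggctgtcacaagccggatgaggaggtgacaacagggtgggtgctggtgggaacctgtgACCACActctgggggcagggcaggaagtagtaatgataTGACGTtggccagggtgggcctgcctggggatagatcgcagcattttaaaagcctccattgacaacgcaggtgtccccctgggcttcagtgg
The Runx core was found in each of these windows. Its first base lay 50 bases before the start in Gzma, 93 and 34 before it in Gzmb, 174 and 108 in Gzmc and 130 in Prf1. The AP-1 site was found in Gzmb alone among them, at 58. The cAMP response element core was found in Prf1, at 92, and in Gzmc, where matches at 57 and 55 overlap and form the palindrome in capitals. No match lay in the Gzmk window. Of 32851 mouse windows of the same length, 14.0% hold the Runx core, 6.75% the AP-1 site and 6.47% the cAMP response element core, so a single match is common. A match describes letters and does not show that a factor binds.

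Members were described in classes of cells. Clusters were made without the 11 granzyme and perforin genes and were named from marker genes, so a class name stands for cells like the named type. The pooled class of T and innate lymphoid cells carried its defining markers, with 13 and 14 of the 15 listed in its 2 clusters, and held 322, 324, 1587 and 1291 cells in control 1, control 2, DSS 1 and DSS 2. These were 3.56%, 3.16%, 13.7% and 11.1% of kept cells. Within it, cells like NK or group 1 innate lymphoid cells (called NK/ILC1 cells below) carried Ncr1, Klrb1c, Klre1 and Tyrobp, and cells like regulatory T cells carried Foxp3, Il2ra and Ctla4. No cluster met the naming rule for CD8 T cells, part of which was added after the clusters were seen. CD8 T cells were thus taken as a gate. It took cells with a UMI of a Cd3 gene and of Cd8a or Cd8b1 and none of Trdc, Cd4 or Foxp3. Clusters called T clusters 2, 3 and 4 stayed unnamed. T cluster 2 held 0, 30, 4 and 426 cells, while T cluster 3 held 111, 13, 268 and 41 and T cluster 4 held 84, 21, 269 and 42, so these clusters differed widely between the 2 libraries of a group. A cluster of low depth among the T and innate lymphoid cells, with 442 of its 497 cells in control 2, was left out of the pooled class. It held 3, 442, 15 and 37 cells in the 4 libraries. In control 2 these were more than the 324 cells kept, so the 3.16% there depends on leaving them out. The share of the pooled class taken by each cluster was not called different between groups (edgeR, adjusted p = 0.913 for each), with NK/ILC1 cells at 7.14%, 16.7%, 17.2% and 10.7%. Between 36 and 52 barcodes were shared by each pair of libraries.

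**Figure D1:**
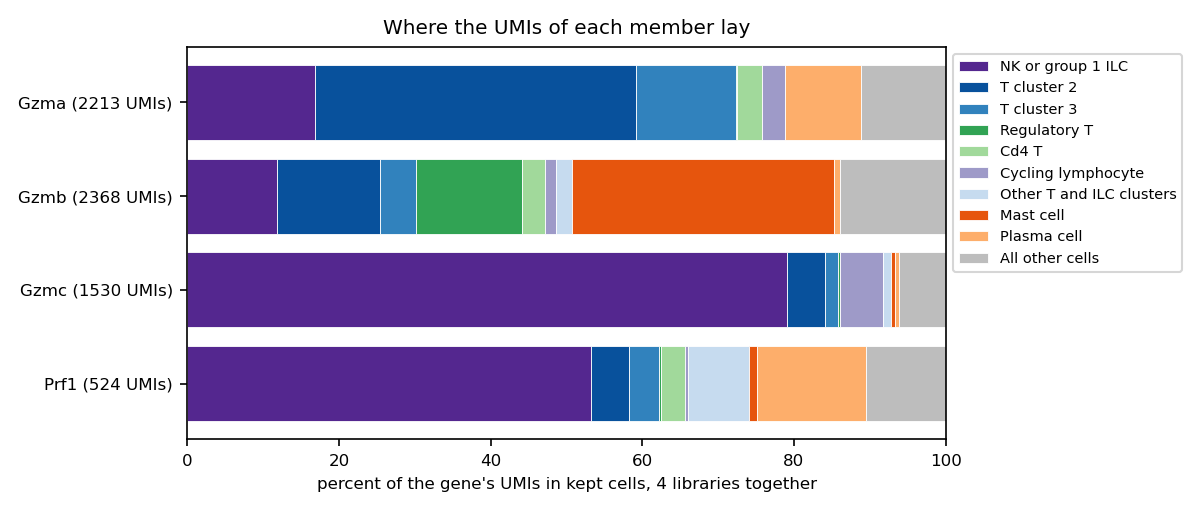
Percent of each gene's UMIs in kept cells that lay in each cell class, over the 4 libraries together; the number of UMIs stands beside each gene. NK/ILC1 cells hold most Gzmc and Prf1, and mast-like cells hold 34.5% of Gzmb. The 42.3% of Gzma in T cluster 2 comes mainly from DSS 2, where that cluster holds 76.2%, against 0 to 14.4% in the other libraries.

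The members were held by different cells. Of the Gzmc UMIs, 92.7% lay in the pooled T and innate lymphoid class. Gzma followed with 78.9%, Prf1 with 74.0% and Gzmk with 71.9%. Gzmb was divided, with 50.8% in the pooled class and 34.5% in 30 mast-like cells, which were 0.0707% of all kept cells. The percent of UMIs in each class is shown in the stacked bars.

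The 2 groups were first compared over all kept cells, where the level mixes the numbers of lymphoid, mast-like and other cells with the level in each. Levels are CPM, the UMIs of a gene in the summed cells after scaling every sum to the same total of UMIs. Gzmb stood at 1.32, 1.41, 10.5 and 10.9 CPM in control 1, control 2, DSS 1 and DSS 2, and Gzmc at 0.119, 0.474, 9.01 and 5.85 CPM. Prf1 stood at 0.227, 0.723, 3.06 and 1.35 CPM, and Gzma at 2.08, 3.77, 5.23 and 11.8 CPM. Both DSS libraries lay above both controls for each of these 4 genes, which 23% of all genes tested also did. The log2 differences were 2.91 (SE 0.40) for Gzmb, 4.59 (SE 0.76) for Gzmc, 2.17 (SE 0.78) for Prf1 and 1.46 (SE 0.53) for Gzma. No member of the 4 tested was called by edgeR at an adjusted p of 0.05, with values of 0.277, 0.355, 0.440 and 0.440 in that order, and 0% of 21073 genes were called. At an unadjusted p under 0.05 edgeR listed each of the 4, against 10.2% of all genes. DESeq2 called 445 genes, with Gzmb (adjusted p = 1.0e-08) and Gzmc (adjusted p = 4.1e-08) among them and not Prf1 (0.0985) or Gzma (0.172). Without DSS 1 and without DSS 2, the edgeR log2 difference was 2.89 and 3.00 for Gzmb and 4.18 and 4.97 for Gzmc. Mast-like cells held 48.4%, 0%, 48.7% and 23.0% of the Gzmb UMIs of the 4 libraries, so the Gzmb difference here is not that of lymphoid cells alone. The pooled lymphoid class itself, with the low-depth cluster left out, was a larger part of the DSS libraries, as given above.

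Within the pooled T and innate lymphoid class, which takes out that difference in number, Gzmc was the member with the largest difference. It stood at 12.7 and 45.6 CPM in the controls (11 and 35 UMIs) and at 147 and 157 CPM in the DSS libraries (844 and 529 UMIs). The DSS libraries lay close together and above both controls, and 7.12% of the genes tested showed that order. The means were 29.1 ± 23.3 and 152 ± 7.47 CPM (SD, n = 2 each), a log2 difference of 2.48 (SE 0.49) whose adjusted p with edgeR was 0.906. Its unadjusted p was under 0.05, as for 1.77% of the genes tested, and edgeR called 0% of 10533 genes. DESeq2 called 7 genes, Gzmc among them (adjusted p = 0.00570). edgeR called it too when control 2 (log2 difference 3.54, adjusted p = 0.0490), DSS 1 (2.43, 0.0259) or DSS 2 (2.59, 0.00587) was left out, and not when control 1 was (1.91). With no filter on low counts it was 2.58 and called (edgeR, adjusted p = 2.6e-05).

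The other members overlapped between groups in the pooled class. Gzmb stood at 69.0, 83.4, 78.5 and 186 CPM, with only DSS 2 above the controls and a log2 difference of 0.81 (SE 0.41). Gzma stood at 185, 181, 66.8 and 315 CPM, so the controls lay between the 2 DSS libraries, with a log2 difference of 0.04 (SE 0.58) that became -1.27 without DSS 2. Prf1 stood at 23.0, 40.4, 39.1 and 33.3 CPM, with a log2 difference of 0.28 (SE 0.37). The adjusted p of each was 1.00 with edgeR. Gzmk, with 7, 0, 10 and 6 UMIs, was too low for the test.

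**Figure D2:**
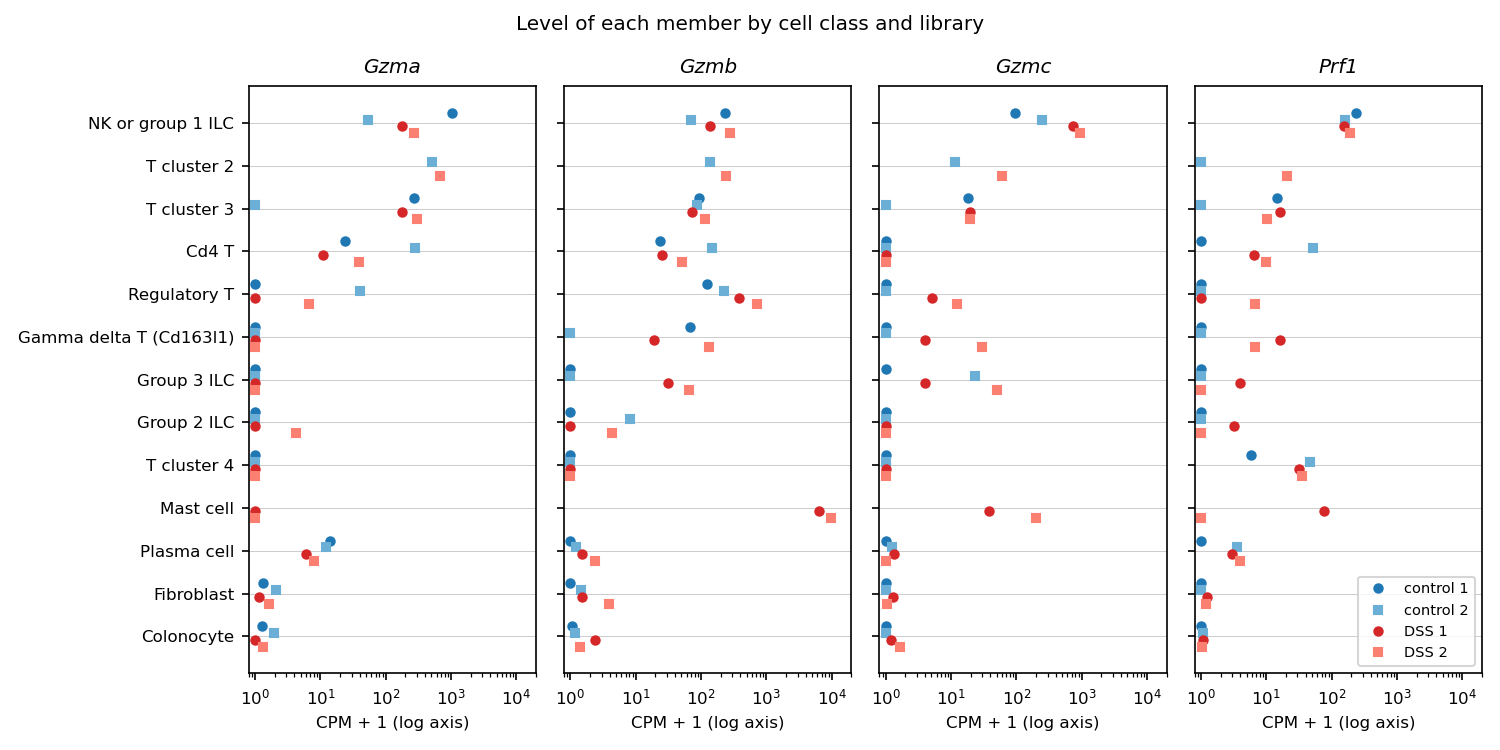
Level of Gzma, Gzmb, Gzmc and Prf1 in CPM + 1 on a log axis, by cell class and library; each point is 1 library and classes with fewer than 10 cells in a library are not drawn for it. Gzmc and Prf1 are highest in NK/ILC1 cells, Gzmb in mast cells, and Gzma in NK/ILC1 cells and T clusters 2 and 3.

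NK cells kill without a T cell receptor, and group 1 innate lymphoid cells are their tissue relatives. NK/ILC1 cells held 79.0% of Gzmc UMIs and 53.2% of Prf1 UMIs. By library their part of the Prf1 UMIs was 71.4%, 32.8%, 55.4% and 55.2%. In both DSS libraries their Gzmc level was above that of every other lymphoid class. Gzmc in these cells stood at 93.2 and 249 CPM in the controls (6 and 33 UMIs in 23 and 54 cells) and at 730 and 948 CPM in the DSS libraries (796 and 374 UMIs in 273 and 138 cells). Both DSS libraries were above both controls, as for 10.1% of the genes tested in the class. The means were 171 ± 110 and 839 ± 154 CPM (SD, n = 2 each). Of the 33 Gzmc UMIs of control 2, 20 lay in 1 cell. In DSS 2 the highest 3 of 138 cells held 51.1% of the Gzmc UMIs, and in DSS 1 the highest 3 of 273 held 19.0%. The level is thus not that of a typical cell of the class. The log2 difference was 2.32 (SE 0.50), with an adjusted p of 0.832 in edgeR and 0.0994 in DESeq2, so it was not called by either, but it was called by edgeR with no filter on low counts (2.53, adjusted p = 0.00444). edgeR called 0% of 4170 genes there, and its unadjusted p was under 0.05 for Gzmc and for 2.45% of all genes. Left out in turn, each library gave a log2 difference between 1.93 and 3.32, none called. A gate of cells with Ncr1, Klrb1c or Eomes and without Cd3 genes gave 1.99 (SE 0.50) and was not called either (adjusted p = 1.00).

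The other members overlapped between the groups in NK/ILC1 cells. Prf1 was even, at 233, 159, 155 and 188 CPM, with a log2 difference of -0.06 (SE 0.42). Gzmb stood at 233, 67.9, 135 and 274 CPM, and its difference of 0.63 (SE 0.60) became -0.07 without control 2. Gzma ranged widely, at 1025, 52.8, 178 and 269 CPM, with control 1 far above control 2. Its difference of -1.15 (SE 0.91) turned to 2.24 without control 1, whose 66 UMIs came from 5 of 23 cells. In DSS 1, 3 of 273 cells held 89.2% of the Gzma UMIs of the class. No UMI of Gzmk was found in 488 NK/ILC1 cells, which allows up to 2.75 CPM in DSS 1, the deepest of the libraries for this class. With 77 control cells in all, the control levels of this class rest on few cells.

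**Figure D3:**
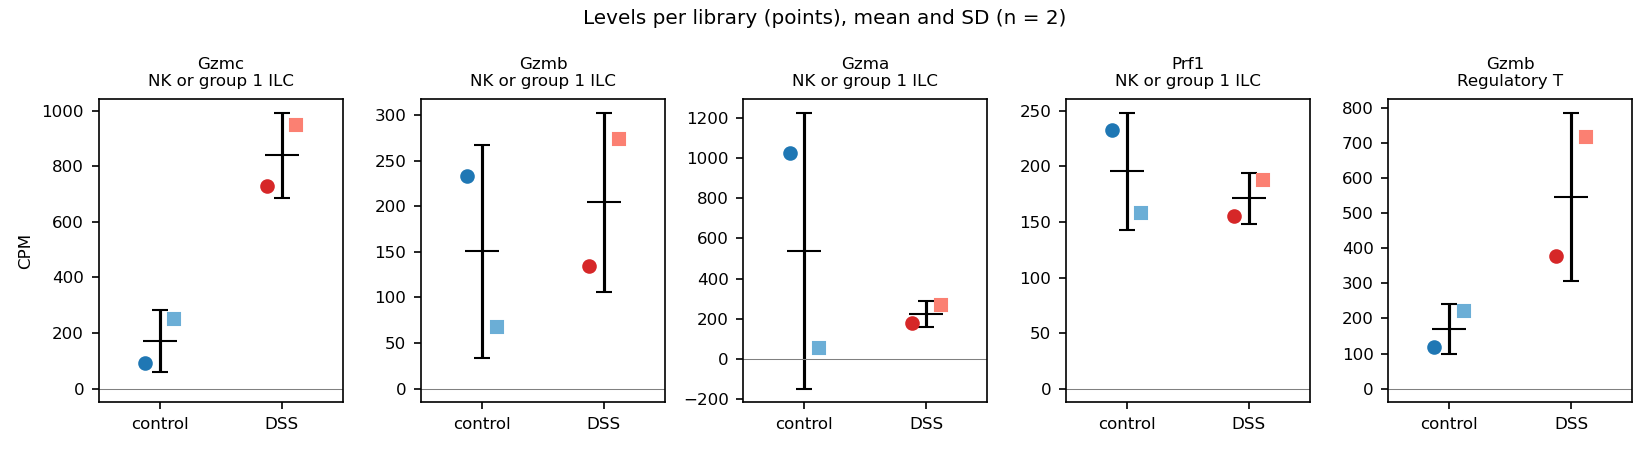
CPM of Gzmc, Gzmb, Gzma and Prf1 in NK/ILC1 cells and of Gzmb in regulatory T cells, with each panel on its own axis; circles are libraries numbered 1, squares libraries numbered 2, blue control and red DSS, with the mean and SD (n = 2). By these clusters Gzmc in NK/ILC1 cells and Gzmb in regulatory T cells do not overlap between groups, and the other panels do; by a marker gate regulatory T cell Gzmb does overlap.

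The share of NK/ILC1 cells with a UMI depends on depth, with a median of 2445 UMIs per cell in controls and 3337 in DSS, so each cell was also thinned to 1000 UMIs. After thinning, 3.95% of 76 control cells and 22.7% of 409 DSS cells held a Gzmc UMI (exact 95% intervals 0.822 to 11.1% and 18.8 to 27.1%, for counting error only). Thinned to 2000 UMIs the shares were 16.4% of 61 and 30.2% of 367 cells, a smaller gap, with exact intervals of 8.15 to 28.1% and 25.6 to 35.2%. Without thinning they were 14.3% and 34.5%. By library, at 1000 UMIs, the thinned shares were 0%, 5.66%, 25% and 18.2%, and the 0% of 23 cells in control 1 allows little to be said of it. The thinned share with Prf1 was 17.1% in controls and 14.2% in DSS, and the share with Gzmb was 6.58% and 9.54%. Colonocyte-like and fibroblast-like cells, which should lack these genes, held a UMI of any member in at most 0.0938% of thinned cells of a group, at median depths of 4170 to 15564 UMIs. Higher shares outside lymphoid cells were 1.26% of control plasma cells with Gzma and 0.408% of DSS B cells with Prf1. The group shares of NK/ILC1 cells given above lay over these.

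Regulatory T cells, which restrain other immune cells and are defined by Foxp3, carried Gzmb, with few UMIs of the other members. Their Gzmb stood at 120 and 220 CPM in the controls (5 and 17 UMIs in 19 and 38 cells) and at 377 and 716 CPM in the DSS libraries (182 and 126 UMIs in 159 and 82 cells). The DSS libraries were above both controls, as for 11.1% of the genes tested there. The means were 170 ± 70.7 and 547 ± 240 CPM (SD, n = 2 each), a log2 difference of 1.65 (SE 0.52). Because control 1 held fewer than 20 such cells, this fit used a minimum of 10 cells per library set after the data were seen. It was not called by edgeR (adjusted p = 1.00), which called 0% of 2207 genes in the class, and Gzmb was among the 1.86% with an unadjusted p under 0.05. Taken by a gate on Foxp3 instead, the 12, 15, 156 and 35 cells had Gzmb at 132, 328, 301 and 911 CPM, so control 2 lay above DSS 1 and the groups overlapped. The log2 difference in the gate was 1.38 (SE 0.68; edgeR, adjusted p = 0.999), and it was 0.61 without DSS 2. After thinning, 12.2% of 49 control cells and 21.3% of 235 DSS cells held a Gzmb UMI, with exact 95% intervals of 4.63 to 24.8% and 16.2 to 27.1% that overlap. Of the same 235 DSS cells, 0 held Gzma and 0 held Prf1, which allows up to 1.28% of cells with such a UMI at that depth and does not limit the share that carry the gene at a lower level. Over all 298 cells unthinned, Prf1 had 1 UMI, and Gzma had 0, 3, 0 and 1.

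In the cluster of other CD4 T cells the level of Gzma was set by a few cells. It stood at 22.8, 280, 9.87 and 37.3 CPM, with control 2 far above the rest. In control 2, 34 of its 39 UMIs lay in 3 of 61 cells. The highest of these, with 21 UMIs, was a cell of the CD8 gate, so the cluster did not hold CD4 T cells alone. The log2 difference of -2.71 (SE 0.82) was not called (edgeR, adjusted p = 1.00; 0% of 5103 genes were called, and 2.1% had an unadjusted p under 0.05, Gzma among them). Without control 2 it was 0.04. It was called by edgeR without DSS 2 (-3.70, adjusted p = 0.0355) and with no filter on low counts (-2.58, adjusted p = 0.0323). Gzmb in the cluster stood at 22.8, 144, 24.1 and 49.7 CPM, again highest in control 2, with a difference of -1.19 (SE 0.65) that became 0.73 without that library. Its highest cell in control 2, with 8 UMIs, was also of the CD8 gate. Gzmc was not found in the 598 cells of this cluster. A gate of cells with a Cd3 gene and Cd4, and without Trdc, Foxp3, Cd8a or Cd8b1, gave other values. Its Gzmb stood at 0, 16.2, 44.0 and 116 CPM (0, 1, 29 and 33 UMIs), with both DSS libraries above both controls. The share of all genes with that order was not taken for this gate. The fitted difference in the cluster was below 0. Of the 29 and 33 DSS UMIs of the gate, 1 and 8 lay in cells of the CD4 cluster. The highest cells of the gate in DSS 1 and DSS 2, with 8 and 7 UMIs, lay in the regulatory T cell cluster. Gzma in the gate was listed at 0, 0, 0 and 3 UMIs. Gzmc in the gate had 0, 0, 1 and 67 UMIs, and the 67 lay in 2 cells of the NK/ILC1 cluster. No member passed the filter on low counts in the gate, so none was tested there. The order of the libraries for Gzmb in CD4 T cells thus depended on how the cells were taken. Gzmk, low throughout the data, had 6, 0, 5 and 4 of its UMIs here.

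The classes that held most Gzma differed between libraries. T cluster 2, led by Bend4, Cables1 and Bcl6, held 0%, 14.4%, 0% and 76.2% of the Gzma UMIs of the 4 libraries, and T cluster 3 held 40.6%, 0%, 34.7% and 2.74%. NK/ILC1 cells held 34.4%, 2.10%, 37.2% and 9.09%, and the low-depth cluster held 20.4% in control 2. T cluster 2 had Gzma at 507 CPM in control 2 and 684 CPM in DSS 2, and Gzmb at 137 and 237 CPM. In control 2, 47 of its 48 Gzma UMIs lay in 1 of 30 cells, while in DSS 2 its 889 UMIs lay in 28 of 426. The other libraries had 0 and 4 cells in that cluster. T cluster 3, led by Klra6, Trgv2, Tcrg-C2 and Cd7, had Gzma at 265, 0, 173 and 300 CPM, where control 2 had 13 cells and the 32 UMIs of DSS 2 lay in 1 of 41 cells. In control 1 and DSS 1 its Gzma lay in 4 and 7 cells. The cluster had Gzmb at 91.6, 87.0, 70.8 and 113 CPM. T cluster 4, led by Dapl1, Ccr7, S1pr1 and Lef1, genes of naive and recirculating T cells, had no UMI of any granzyme among the members in 416 cells, but Prf1 at 4.86, 45.7, 31.1 and 34.2 CPM. In that cluster perforin was thus found without Gzma, Gzmb, Gzmc or Gzmk, mostly as single UMIs: 28 UMIs in 25 cells of DSS 1.

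The gates cut across these clusters. Cells gated as gamma delta T cells, with a Cd3 gene and Trdc, had Gzma at 437, 1629, 323 and 1648 CPM, the highest level of the gates in every library but control 1, where the NK/ILC1 gate stood at 985 CPM. These levels came from 1, 3, 8 and 13 cells. Both libraries numbered 2 were high and both numbered 1 low, whatever the treatment, and the log2 difference was -0.00 (SE 0.73), with a range of -1.36 to 1.17 when a library was left out. Gzmb there stood at 184, 106, 100 and 510 CPM, with a difference of 1.04 (SE 0.71) that became -0.32 without DSS 2. Neither was called, and edgeR called 0% of 3756 genes with the minimum of 10 cells. The cluster of gamma delta T cells marked by Cd163l1, Blk and Tcrg-V6 was different. It had 0 UMIs of Gzma in 200 cells, which allows up to 9.05 CPM in DSS 1, and Gzmb at 67.2, 0, 18.1 and 133 CPM.

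Cells of the CD8 gate had Gzma at 263, 444, 3.29 and 751 CPM, so the 2 DSS libraries were the lowest and the highest, and 187 of the 266 UMIs of DSS 2 lay in 1 of 111 cells. The log2 difference was 0.00 (SE 1.25). Without DSS 2 it was -6.25 and called (edgeR, adjusted p = 3.0e-05), which rests on the 2 UMIs of DSS 1 alone. Gzmb stood at 85.4, 266, 23.1 and 153 CPM, in the same order of libraries except that control 2 was highest, with a difference of -0.98 (SE 0.72). Neither was called with all libraries, and edgeR called 0% of 3833 genes.

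Other innate lymphoid cells carried little. Group 2 innate lymphoid cells, which make Il5 and Il13, had at most 1 UMI of any member in each library over 411 cells. Group 3 innate lymphoid cells, which make Il22, had Gzmb at 0, 0, 30.1 and 64.4 CPM and Gzmc at 0, 21.9, 3.01 and 50.1 CPM, and no Gzma. Their 10 and 19 control cells limit the control levels. Cycling lymphocytes had Gzmc at 0, 0, 119 and 508 CPM, where the 25 UMIs of DSS 1 lay in 2 cells and the 63 of DSS 2 in 1, and Gzma of 15, 42, 1 and 10 UMIs, in 1 cell of each library. Gzmk was found at 3 and 2 UMIs in the cycling cells of DSS 1 and DSS 2.

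Among lymphoid classes, ordered by mean level in the DSS libraries, Gzmc was highest in NK/ILC1 cells (839 ± 154 CPM, SD, n = 2), then in cycling lymphocytes (314 ± 275, from 3 cells), group 3 innate lymphoid cells (26.5 ± 33.3) and T cluster 3 (18.5 ± 0.404). NK/ILC1 cells lay above cycling lymphocytes, which lay above group 3 innate lymphoid cells, and the last pair overlaps. Prf1 was highest in NK/ILC1 cells (171 ± 23.0), then in T cluster 4 (32.7 ± 2.25) and T cluster 3 (12.3 ± 4.20), with no overlap between neighbours. Gzmb was highest in regulatory T cells (547 ± 240), then in NK/ILC1 cells (204 ± 98.1) and T cluster 3 (91.7 ± 29.5), again with no overlap between neighbours. Gzma in T cluster 3 (237 ± 89.7) and in NK/ILC1 cells (223 ± 64.1) overlapped. Cycling lymphocytes (42.7 ± 53.7) and CD4 T cells (23.6 ± 19.4) lay below both and overlapped each other. T cluster 2, with 4 cells in DSS 1, and the low-depth cluster are left out of this order. It is a description of classes made from these cells, with no test between them.

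**Figure D4:**
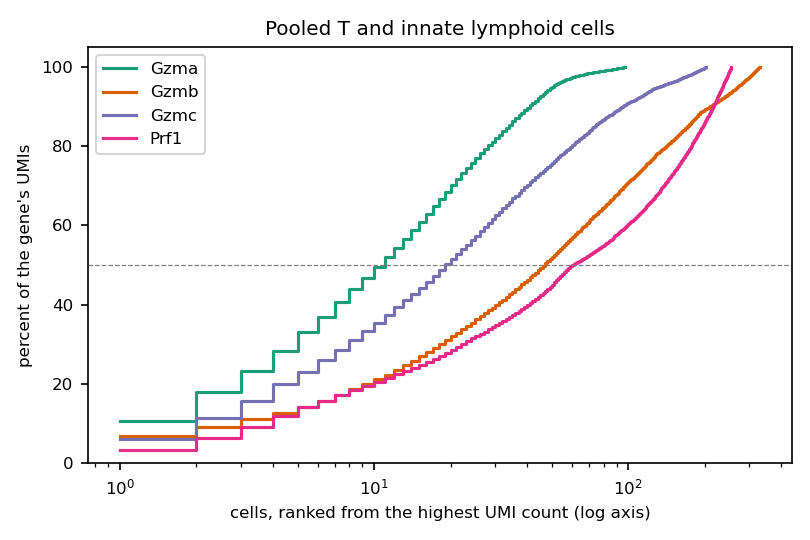
Cumulative percent of each gene's UMIs in the pooled T and innate lymphoid class against cells ranked from the highest count, on a log axis; the dashed line marks 50%. The Gzma curve rises first, with 11 cells at 50%, and the Prf1 curve last, with 60.

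The members differed in how they were spread over cells. Gzma was held by 97 of 3524 pooled cells, and 11 of these held 50% of its UMIs. The highest cell had 187 UMIs, and 45 cells had 10 or more. Gzmc was held by 203 cells, of which 19 held 50%, with 89 UMIs in the highest and 39 cells at 10 or more. Gzmb was held by more cells, 330, of which 47 held 50%, and 25 had 10 or more. Prf1 was held by 254 cells with at most 13 UMIs, and 76.8% of them had 1 UMI. Few cells with many molecules thus carried Gzma, and many cells with 1 molecule carried Prf1. The number of pooled cells with 10 or more Gzmc UMIs was 0, 1, 27 and 11 in the 4 libraries, while for Gzma it was 8, 3, 9 and 25.

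**Figure D5:**
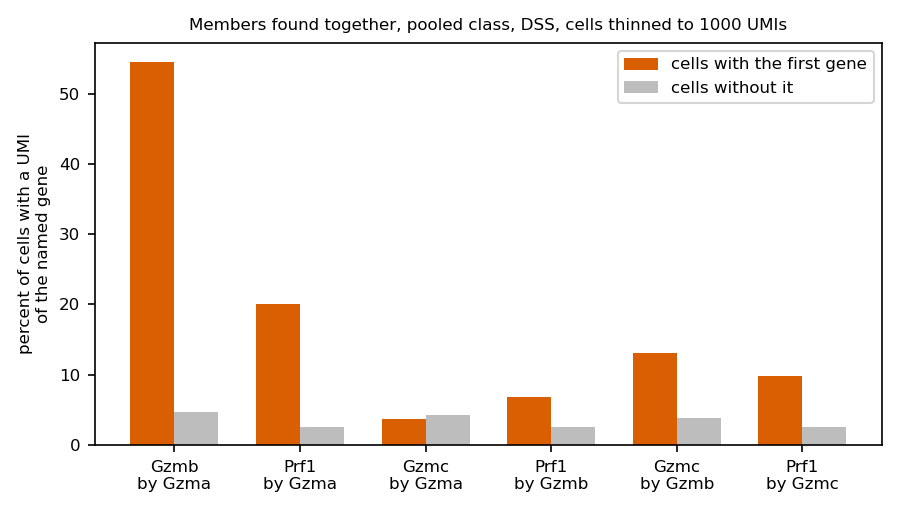
Percent of pooled T and innate lymphoid cells of the DSS libraries with a UMI of the upper gene, among cells with (orange) and without (grey) a UMI of the lower gene, each cell thinned to 1000 UMIs. Gzmb is frequent among Gzma cells, at 54.5% against 4.68%, while Gzmc stands at 3.64% among Gzma cells and 4.32% among the rest.

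Most cells with Gzma also held Gzmb, while most cells with Gzmb held no Gzma. Among 2833 pooled cells of the DSS libraries thinned to 1000 UMIs, 54.5% of the 55 cells with Gzma also held Gzmb, against 4.68% of the rest, and 20% held Prf1, against 2.52%. Of the 160 cells with Gzmb, 18.8% held Gzma, against 0.935% of the rest. Of the 55 Gzma cells, 3.64%, or 2 cells, held Gzmc, close to the 4.32% of the rest. Gzmb was in 17.2% of the 122 Gzmc cells, against 5.13% of the rest. Within NK/ILC1 cells 10 of 16 Gzma cells held Gzmb and 9 held Prf1. Of these 16 cells 1 held Gzmc, or 6.25%, against 23.4% of the rest. In the gamma delta gate 70% of 20 Gzma cells held Gzmb, against 3.63% of the rest. These are shares over cells that come from 2 libraries, given as a description with no test.

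Mast cells, which store proteases and histamine in granules, held much of the Gzmb outside lymphoid cells. The mast-like cluster, which carried Cpa3, Mcpt1, Mcpt2 and Cma1, held 1, 0, 19 and 10 cells. It also carried Mcpt8, known as a basophil protease, at 2209 CPM, against 7158 for Mcpt1 and 1331 for Cma1, and 21 of its cells held at least 2 of 6 mast cell genes. Whether the cluster also holds basophils was not tested. Of its 30 cells, 26 held Gzmb, with a median of 8 UMIs and a highest count of 160. Summed per library, Gzmb stood at 6321 CPM in DSS 1 and 9806 CPM in DSS 2, and at 8525 CPM in the 1 cell of control 1. Mast cells gave 48.4%, 0%, 48.7% and 23.0% of all Gzmb UMIs of the 4 libraries. No UMI of Gzma was found in them, and Prf1 had 6 UMIs and Gzmc 8. With 1 control cell no comparison of groups was possible. Cells that carry mast genes also lay in other classes: 1 cell of DSS 2 among the B cells, with at least 2 of 6 mast cell genes, held 99 of the 102 Gzmb UMIs of all B cells, and 1 such cell among the fibroblasts held 30 of their 48 UMIs in DSS 2.

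Outside lymphoid and mast cells the members were low. In plasma cells Gzma stood at 12.9, 11.1, 4.91 and 6.96 CPM (18, 47, 120 and 36 UMIs), mostly as 1 UMI per cell, with a log2 difference of -0.74 (SE 0.36; edgeR, adjusted p = 1.00; 0% of 10508 genes called). This was 2.21 to 7.35% of the level in the pooled lymphoid class of the same library. Prf1 was at 0, 2.60, 2.00 and 2.90 CPM, or 0 to 8.72% of that level. Plasma cells were 6.57% of kept cells and held 14.3% of all Prf1 UMIs and 9.99% of all Gzma UMIs. In the same cells Ccl5 lay between 0.514 and 1.54% of its lymphoid level and Trac between 0.489 and 1.35%. Gzmb, Nkg7, Klrd1, Cd7, Trbc2, Cd3d, Cd3e and Cd3g lay between 0 and 0.832%. Gzma made up 91.7% of the Gzma and Gzmb UMIs, against 59.2% in the pooled class. The source of these UMIs was not tested.

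In epithelial progenitors Gzmb had 0, 1, 6 and 12 UMIs, and edgeR called it higher in DSS (adjusted p = 0.0497), as it called 4.64% of 13969 genes in either direction. Pooled over libraries the level was 36.8 times that of the controls, with an exact 95% counting interval of 5.81 to 1533 for 1 control UMI. The call was lost without control 1 (adjusted p = 0.195) or without control 2 (0.0918), and the level was at most 0.872 CPM, where the pooled class of the same library stood at 78.5 CPM. In colonocytes 17 of the 18 Gzmb UMIs of DSS 1 lay in 1 cell. Over all cells outside the pooled class, the mast cluster and the low-depth cluster, Gzmc had 0, 1, 48 and 45 UMIs, at most 0.512 CPM.

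Other genes of the granule pathway were taken from a list of 50 genes in 7 roles, of which 47 had at least 1 UMI and 41 were tested in the pooled class. None was called by edgeR and 0 had an unadjusted p under 0.05, with 27 higher and 14 lower in DSS and a median log2 difference of 0.15, against -0.01 over all genes tested. Of the other granzymes, Gzmm stood at 4.60, 0, 1.39 and 2.67 CPM and Gzmf at 0, 0, 0.521 and 2.08 CPM, and none was tested. Among granule proteins and the enzymes that activate granzymes, 3 were higher and 6 lower, with Srgn, the proteoglycan that packs granzymes, at 1361, 1348, 1229 and 1807 CPM, and Nkg7, a granule membrane protein, at 666, 315, 404 and 383 CPM. Of the genes for granule release, 5 were higher and 1 lower, and Stx11, a syntaxin of granule fusion, stood at 19.6, 48.2, 30.2 and 79.6 CPM. Of the granzyme inhibitors, 4 were higher and 1 lower, and Serpinb9, which inhibits granzyme B, stood at 71.3, 267, 124 and 387 CPM, high in both libraries numbered 2. Among killing ligands and cytokines, 4 were higher and 2 lower, and Ccl5, a chemokine of cytotoxic cells, stood at 4469, 1839, 1890 and 2772 CPM. Among receptors, 5 were higher and 3 lower, with Il2rb, the shared receptor chain for interleukins 2 and 15, at 230, 547, 361 and 722 CPM. Of the transcription factors, 6 were higher and 1 lower, and Runx3, which acts in cytotoxic T cells, stood at 238, 296, 222 and 313 CPM. The groups overlapped for each gene named here apart from Gzmf.

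In NK/ILC1 cells 35 of the listed genes were tested, 16 higher and 19 lower, with a median of -0.01 against 0.01 over all genes, 0 called and 0 with an unadjusted p under 0.05. Of the 5 killing ligands and cytokines tested there, 1 was higher and 4 were lower in DSS. Ifng, the cytokine that activates macrophages, stood at 979, 294, 472 and 393 CPM there. Xcl1, which attracts dendritic cells, stood at 2765, 2250, 3166 and 3203 CPM. Both DSS libraries were above both controls for Xcl1, as for 10.1% of the genes tested in the class. In the CD4 T cell cluster, which also held cells of the CD8 gate, 15 were higher and 20 lower, and none was called. By edgeR 4 had an unadjusted p under 0.05, where 2.1% of all genes tested there did. These were Ctsw, Ifng, Ccl5 and Klrd1, named after their values were seen, each lower in DSS by the fit.

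The genes whose levels over 26 classes were most like each member, by Pearson r of log2(CPM + 1) averaged over libraries, were for Gzma Il12rb2 (0.91), Samd3 (0.91), Ccl5 (0.90), Klra9 (0.89) and Xcl1 (0.88). For Gzmc they were Klrb1f (0.86), Soat2 (0.86), Crtam (0.85), Klra13-ps (0.82) and Ncr1 (0.81). For Prf1 they were Nkg7 (0.76), Gm21994 (0.75), Crtam (0.74), Gm14029 (0.72) and Klra8 (0.72). For Gzmb they were Cst7 (0.88), Gm29112 (0.86), Lag3 (0.84), Traf2 (0.84) and Padi2 (0.84). Gzmk, with few UMIs, was nearest to Hist2h2bb (0.80), Cdc45 (0.79), Fignl1 (0.79), Kntc1 (0.76) and Lrr1 (0.76). The classes share libraries and differ in depth, and the choice depended on the measure: by Spearman's rho, 1 of these 5 genes came up again for Gzma, 1 for Gzmc and 0 for the others.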

How the data were processed

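The authors deposited whole-number UMI counts per gene and barcode, in 12 files for 4 libraries, as read from the files. Per the submitters' processing notes the tool was Cell Ranger 6.1.1 and the build GRCm38; its other settings were not given in the sources used here. Droplets were made with version 3 reagents and libraries with version 2 reagents, per the labels. Together the files held 49851 barcodes and 101051573 to 109472082 UMIs per library. Cells with at least 500 UMIs, 250 genes and at most 25% mitochondrial UMIs were kept. Barcodes that passed the others and failed that last limit were 12.1%, 16.9%, 4.27% and 5.54% of all barcodes of a library. Scrublet in scanpy 1.11.5 marked 3.03 to 5.38% of cells as doublets, which were removed. Median depth was 4731 to 6297.5 UMIs (kept cells: 9039, 10244, 11574 and 11591). Clusters came from leidenalg 0.10.2 at resolution 1, on 2000 variable genes; lymphoid cells were clustered again. A name needed 3 markers, each in 15% of cells and 2-fold higher than elsewhere, and the name with the most markers was used. For T cell names certain genes had to be among the markers, a condition added after the clusters were seen. These were Cd4 for CD4, Cd8a or Cd8b1 for CD8, Trdc for gamma delta and Foxp3 for regulatory T cells. Within each class the UMIs of a library were added up, and the sums were tested with edgeR 4.0.16 in R 4.3.3 (quasi-likelihood F test, two-sided, TMM; genes filtered by filterByExpr; model with the group alone). Adjustment over all genes tested was by Benjamini-Hochberg, with a threshold of 0.05, in subclasses and gates with at least 20 cells per library and broad classes with at least 30. DESeq2 1.42.0 ran beside it. An exact permutation test of 2 against 2 libraries cannot go below p = 0.333 and was not used. Alternatives were other size factors, no filter, a replicate block, each library left out, doublets kept, a 15% mitochondrial limit and marker gates. Intervals and limits of 3 counts cover counting error only. The text names the 5 members, at most 3 genes per role of a pathway list by mean level, genes past an unadjusted p under 0.05 in CD4 T cells, and the 5 genes most like each member among those with 20 CPM in a class. The members, lists and markers were chosen with earlier results of these data known. RefSeq promoter windows (GRCm38.p6) were matched by symbol for 5 of 5 members.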

Additional observations from a re-analysis of the deposited data

Results flagged for a closer look

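In both kinds of barcodes left out of the main comparisons, both DSS libraries lay above both controls for Gzmc. For Prf1 they did so in predicted doublets alone, and barcodes that failed the filters had 0, 1, 0 and 0 Prf1 UMIs. In barcodes that failed the filters, the mean Gzmc level was 1.29 CPM in the DSS libraries, with 3 UMIs in each, against 0.0692 CPM in the controls, with 0 and 1 UMIs. In predicted doublets the mean Gzmc level was 6.31 CPM in DSS, with 22 and 79 UMIs, against 0.112 CPM in controls, with 1 and 0 UMIs. In the same doublets Prf1 was at 1.87 CPM in DSS, with 14 and 13 UMIs, against 0.577 CPM in controls, with 0 and 7 UMIs. Each was listed because both DSS libraries were above both controls outside the cells compared, and none was tested. The share of all genes with that order was not taken in these barcodes, and in all kept cells it was 23%. Gzma in doublets, at 4.27, 1.98, 1.29 and 21.5 CPM, and Gzmb, at 0.674, 3.79, 2.90 and 10.2 CPM, overlapped between groups, with DSS 2 highest. The doublets entered only the alternative that kept them. No group had the 4 samples that a search for outlying samples needs.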

How the results depend on the processing

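Of 267 recomputed values, 189 kept their direction and side of the threshold or moved by less than the spread. With 1 library left out, the lone library of its group is assumed to vary like the other group. The cause of the changes below was not tested. In the pooled class Gzmc was called with DESeq2 (2.50), with no filter on low counts (2.58) and with the replicate block (2.54), and ranged from 1.91 to 3.54 over libraries left out; Gzma was -0.28 with the block and ranged from -1.27 to 0.72. In all kept cells Gzmb was 2.92 with DESeq2 and 2.95 with no filter (range 2.83 to 3.03), and Gzmc 4.60 and 4.63 (3.89 to 5.98), all called by these 2 settings. In NK/ILC1 cells Gzmc with no filter was 2.53 and called; Prf1 was 0.16 with no filter and 0.25 by marker gates (range -0.28 to 0.30). There Gzma ranged from -2.05 to 2.24 and Gzmb from -0.066 to 1.73. In CD4 T cells Gzma was called with no filter (-2.58) and with the block (-2.45) and ranged from -3.70 to 0.037, and Gzmb from -1.86 to 0.73. In the CD8 gate Gzma was -0.0098 with DESeq2, -0.014 with RLE size factors and -1.47 with the block (range -6.25 to 1.01). In the gamma delta gate Gzma ranged from -1.36 to 1.17 and Gzmb from -0.32 to 1.77. The fitted difference of Gzmb in epithelial progenitors was 3.37 and 6.91 without either control library. The number of genes called in the pooled class was 0, and 7 with DESeq2, 24 with no filter, 31 with the block and 0 to 14 over libraries left out. In all kept cells it was 0, 445 with DESeq2, 631 with no filter and 0 to 766. In NK/ILC1 cells it was 0, 1 with DESeq2, 11 with no filter, 1 with the block, 1 with doublets kept and 1 to 3. In CD4 T cells it was 0, 2 with DESeq2, 7 with no filter, 20 with the block and 0 to 4. By marker gates the make-up difference was -0.056 for group 3 innate lymphoid cells and 0.59 for regulatory T cells, against 0.07 and -0.11 by clusters. Shares of cells moved with depth: thinned to 2000 UMIs, NK/ILC1 cells with Gzmc were 16.4% in controls and 30.2% in DSS, and with Prf1 31.1% and 20.2%; unthinned they were 14.3% and 34.5%, and 31.2% and 31.6%, and regulatory T cells with Gzmb in DSS were 28.2%. The samples share only a replicate number: over 10533 genes, the deviations of the libraries numbered 1 from their group means correlated at 0.46 between the groups, and with 2 pairs this does not show pairing. The controls held 646 pooled lymphoid cells and the DSS libraries 2878, at median depths of 2541.5, 2289, 3310 and 2329 UMIs per cell.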
